A study of Caenorhabditis elegans with 2 samples.

Results

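The X chromosome of Caenorhabditis elegans held 341 of the 1910 peaks of the zinc finger protein LIR-3 that passed the authors' threshold on the irreproducible discovery rate (IDR). They were taken by a single rule, that the deposited list places the peak on X, with no cut on strength. The remaining peaks were 1553 on the 5 autosomes and 16 on the mitochondrial genome, which were not used for comparison. The assay was ChIP-seq, in which DNA that crosslinks to a protein is precipitated with it and sequenced, on 1 group of 2 biological replicates. Each was a sample of whole hermaphrodite L1 larvae of strain OP312, with the genotype unc-119(ed3) III; wgIs312, collected 6 h after synchronization. All larvae carried wgIs312, a stable transgene of lir-3 with GFP and FLAG at the C-terminus, and chromatin was recovered through the GFP part. No sample without the transgene was analysed here, and whole larvae mix all cell types. Coordinates are on ce11 (WBcel235), and a summit is the position the authors gave as the top of a peak. Scores are the authors' signal values of peaks in the pooled data, without a unit, and serve here for ranking inside 1 list. Read depth is unknown. With 1 group there is no contrast to test, and peaks are not replicates, so X is set beside each autosome and beside each replicate's own list, with no test. Exact Clopper-Pearson 95% intervals of shares cover counting error only.

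The X chromosome of C. elegans differs from the autosomes in what it carries. Hermaphrodites have a pair of X chromosomes and males a single X, and in hermaphrodites a condensin-based dosage compensation complex binds both X chromosomes and lowers their transcription. That complex loads at a limited set of recruitment elements, which lie on X and contain clustered short GC-rich motifs, and it spreads from there. X is also rich in tRNA genes, which RNA polymerase III transcribes from promoters inside the gene, and it has few of the genes that are active in the germ line. LIR-3 belongs to the family named after lin-26, a zinc finger gene needed for epidermal fate.

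The 10 strongest X peaks were mostly away from annotated genes, and several held GC-rich words that were rare elsewhere. In counts of 5' ends of any gene, here and below, piRNA genes were left out. Of these 10 peaks, 7 had no annotated 5' end of any gene within 500 bp of the summit, and 5 of the 7 held the word GCGCAGG or GCGAAGG within 100 bp. Both words were searched on both strands (reverse complements CCTGCGC and CCTTCGC). They differ in 1 base, so a single site cannot count as both, and they were picked after the word counts of these peaks had been seen. A set of 7 windows are shown because they are strong X peaks that hold GCGCAGG together with a further copy or the second word. Each runs on the plus strand from 100 bases before the summit to 100 after it and was read from the RefSeq WBcel235 genome, with either word in capitals. A match is a description of these letters and not a measured binding site.
chrX:11094107-11094307: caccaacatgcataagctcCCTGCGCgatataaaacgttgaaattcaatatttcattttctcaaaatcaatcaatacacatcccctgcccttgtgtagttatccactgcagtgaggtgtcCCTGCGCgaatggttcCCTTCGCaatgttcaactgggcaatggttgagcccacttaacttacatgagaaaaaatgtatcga
chrX:4209159-4209359: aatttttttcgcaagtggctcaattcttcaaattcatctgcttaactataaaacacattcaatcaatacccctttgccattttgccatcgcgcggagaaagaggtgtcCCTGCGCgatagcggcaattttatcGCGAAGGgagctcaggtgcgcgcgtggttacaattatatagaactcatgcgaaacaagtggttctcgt
chrX:2997017-2997217: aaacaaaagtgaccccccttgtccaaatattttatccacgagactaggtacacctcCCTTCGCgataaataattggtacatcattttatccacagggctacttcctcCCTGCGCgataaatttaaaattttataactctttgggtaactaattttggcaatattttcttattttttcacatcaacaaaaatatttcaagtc
chrX:8036332-8036532: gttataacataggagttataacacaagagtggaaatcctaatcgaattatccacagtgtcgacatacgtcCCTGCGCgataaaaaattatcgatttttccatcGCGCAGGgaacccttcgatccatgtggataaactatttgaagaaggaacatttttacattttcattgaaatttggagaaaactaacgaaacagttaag
chrX:16682008-16682208: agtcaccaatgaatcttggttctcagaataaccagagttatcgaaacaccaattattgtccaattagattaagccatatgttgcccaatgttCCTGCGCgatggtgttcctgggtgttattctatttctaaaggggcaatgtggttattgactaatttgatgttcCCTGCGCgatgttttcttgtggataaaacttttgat
chrX:6296506-6296706: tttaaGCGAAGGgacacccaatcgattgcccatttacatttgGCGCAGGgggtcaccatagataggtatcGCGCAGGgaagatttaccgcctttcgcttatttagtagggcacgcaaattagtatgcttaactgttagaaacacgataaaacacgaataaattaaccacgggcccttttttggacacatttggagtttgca
chrX:14525814-14526014: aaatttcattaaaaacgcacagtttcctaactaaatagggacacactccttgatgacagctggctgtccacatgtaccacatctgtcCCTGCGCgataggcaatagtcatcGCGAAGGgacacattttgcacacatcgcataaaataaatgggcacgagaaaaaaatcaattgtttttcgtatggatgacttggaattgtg

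The peak at 11094207 scored 841 in the pooled data, 271 in replicate 1 and 574 in replicate 2. It lay outside any protein-coding gene, 1466 bp from the nearest 5' end, and its window held GCGCAGG 2 times and GCGAAGG 1 time. The peak at 4209259 scored 781, with 383 and 432 in the replicates, and lay 1774 bp from a 5' end. Its words stood in opposite orientation on the plus strand, and a weaker peak with GCGCAGG was centred 541 bp to its left, at 4208718. The peak at 2997117, in an intron of the uncharacterized gene Y41G9A.17, scored 663, with 293 and 383 in the replicates. The peak at 8036432 scored 656, with 263 and 399. It is the only one of the 7 with a gene 5' end within 500 bp, 242 bp away at the ncRNA gene C18A11.13. A summit 199 bp further along, at 8036631, was the closest neighbour that any X summit had.

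The peak at 16682108 scored 612, with 225 and 381 in the replicates, and held GCGCAGG 2 times. The peak at 6296606 lay in an intron of mom-1, the porcupine gene, whose product acylates Wnt proteins. It scored 609, with 232 and 371 in the replicates, and held 3 words within 100 bp. The peak at 14525914 scored 607, with 251 and 381, and lay 733 bp from the nearest 5' end. Replicate 2 gave the higher score at each of these 7 peaks, and the lists of the replicates are not on a shared scale.

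Outside GCGCAGG itself, neighbouring bases recurred in these windows. The word occurred 26 times within 100 bp of an X summit. Written 5' to 3' with GCGCAGG forward, the base directly before it was C in 18 of 26 occurrences (69.2%), against 77 of the 331 occurrences elsewhere on X (23.3%). The base directly after it was G in 19 of 26 (73.1%), against 62 of 331 (18.7%). Near autosomal summits the same bases were found in 4 of 22 and 5 of 22 occurrences. Adding each neighbouring base held by more than 50% of the X occurrences gave the 12-base run ATCGCGCAGGGA (reverse complement TCCCTGCGCGAT). This run was built from the X summits, so its presence there was fixed by its making. Its count elsewhere was not set against that of other 12-base runs, so a low count there is a description only. It occurred 10 times on X, 9 of them within 100 bp of an IDR summit, and 1 time on the autosomes, where it was not near one. The run was in 8 X summit windows, 7 of which are the windows shown above, with scores from 607 to 841, and the last scored 332 at 13514584. Neither the words nor the run were compared with known motifs, those of the recruitment elements included. Whether they belong to a sequence already described for another protein was not tested.

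The whole of X had GCGCAGG as often as the autosomes did, so the difference lay in where the peaks were. The word occurred 357 times on X, 20.1 per Mb, and 1642 times on the autosomes, 19.9 per Mb. An IDR summit lay within 100 bp of 26 of the 357 X occurrences (7.28%) and of 22 of the 1642 autosomal occurrences (1.34%), with 0.708% to 2.18% on single autosomes. Against all summits of the pooled list, before the threshold, the shares were 13.4% on X and 6.7% on the autosomes. For GCGAAGG the shares near IDR summits were 12 of 661 (1.82%) and 24 of 2927 (0.82%). Most occurrences of both words on X thus had no IDR summit near them.

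Counted by peak, 21 of the 341 X windows held GCGCAGG (6.16%, 95% interval 3.85 to 9.26%) and 22 of the 1553 autosomal windows did (1.42%, 0.89 to 2.14%). Single autosomes had 1.08% to 1.86%. The replicates' own lists, each limited to as many of its strongest nuclear peaks as the IDR set has, gave 20 of 320 X peaks (6.25%) and 16 of 1574 autosomal ones (1.02%) in replicate 1. Replicate 2's list gave 21 of 357 (5.88%) and 21 of 1537 (1.37%). The difference between X and the autosomes was 4.74 percentage points in the IDR set, 5.23 in replicate 1 and 4.52 in replicate 2. The IDR set, in which the word was picked, was made from both replicates, so their lists are no separate check. Flanking windows, centred 500 bp from a summit and holding none, had the word in 1 of 670 on X (0.149%) and in 11 of 3076 on the autosomes (0.358%). Windows of the same length tiling the chromosomes held it in 0.38% on X and 0.383% on the autosomes. Stretches from 250 bases before to 50 after the 5' ends of protein-coding genes held it in 0.732% on X and 0.592% on the autosomes.

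The second word, GCGAAGG, was in 12 X windows (3.52%, 1.83 to 6.07%) and in 20 autosomal windows (1.29%, 0.788 to 1.98%), against 0.732% and 0.68% of tiling windows and 1.14% and 1.01% of the stretches at 5' ends. Either word was in 26 X windows (7.62%) and 42 autosomal windows (2.7%). The words were close to the X summits. Within 500 bp of X summits GCGCAGG occurred 33 times, 18 of them within 50 bp (54.5%), and on the autosomes 12 of 51 did so (23.5%).

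**Figure D1:**
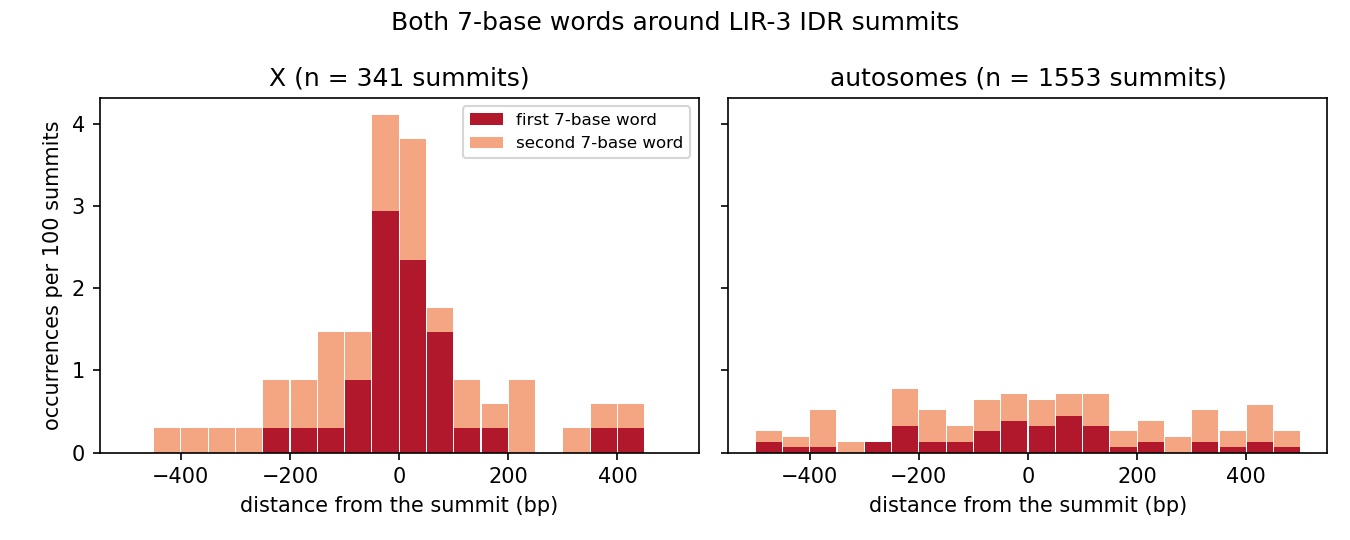
Occurrences of both 7-base words per 100 IDR summits (y axis) by distance from the summit in bp (x axis, 50 bp bins), on X (left, 341 summits) and on the autosomes (right, 1553 summits). Dark bars are GCGCAGG and light bars stacked on them GCGAAGG; on X the bars rise near the summit, where 27 of 66 occurrences lay within 50 bp, against 22 of 135 on the autosomes.

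Word-bearing peaks stood elsewhere relative to genes on X than on the autosomes. On X, GCGCAGG was in 17 of 132 summit windows with no gene 5' end within 500 bp (12.9%, 7.68 to 19.8%) and in 4 of 209 with one (1.91%, 0.524 to 4.83%). On the autosomes the order was the other way round, 3 of 485 without (0.619%) and 19 of 1068 with (1.78%). Of the 26 X peaks with either word, 21 had no 5' end within the window (80.8%), and of the 42 autosomal ones 5 did (11.9%). The 5 X exceptions were at C18A11.13, at hsp-3, at the ncRNA gene C49F8.10, at the tRNA gene ZK678.t1 and at lin-14, a gene of developmental timing, where the peak scored 93.2.

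Peaks on X with more words had higher scores. The 315 X peaks with neither word had a median score of 143, the 16 with 1 word a median of 227, and the 10 with 2 or more a median of 610, with a range from 223 to 841. In replicate 1 these medians were 66.8, 107 and 242, and in replicate 2 they were 88.4, 139 and 381, in the same order. The words were picked after the counts of these peaks had been seen, with the strength of the peaks known, so the order can be partly built in. The IDR set was made from both replicates, so this order is a description and the lists are no separate check. The highest score without a word was 954, so the groups overlap. On the autosomes the median was 161 for 1511 peaks without a word and 220 for 42 with 1, and none had 2 or more. Of the 25 strongest X peaks 10 held a word. None of the 50 strongest autosomal peaks did, but all of these scored above the highest X peak. Of the 100 strongest autosomal peaks 4 held a word. The remaining X word peaks ran down to the bottom of the list. One in a coding exon of pks-1, a polyketide synthase gene, scored 417, and those at 4395637, 17181416 and 4208718 scored 130, 112 and 109.

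**Figure D2:**
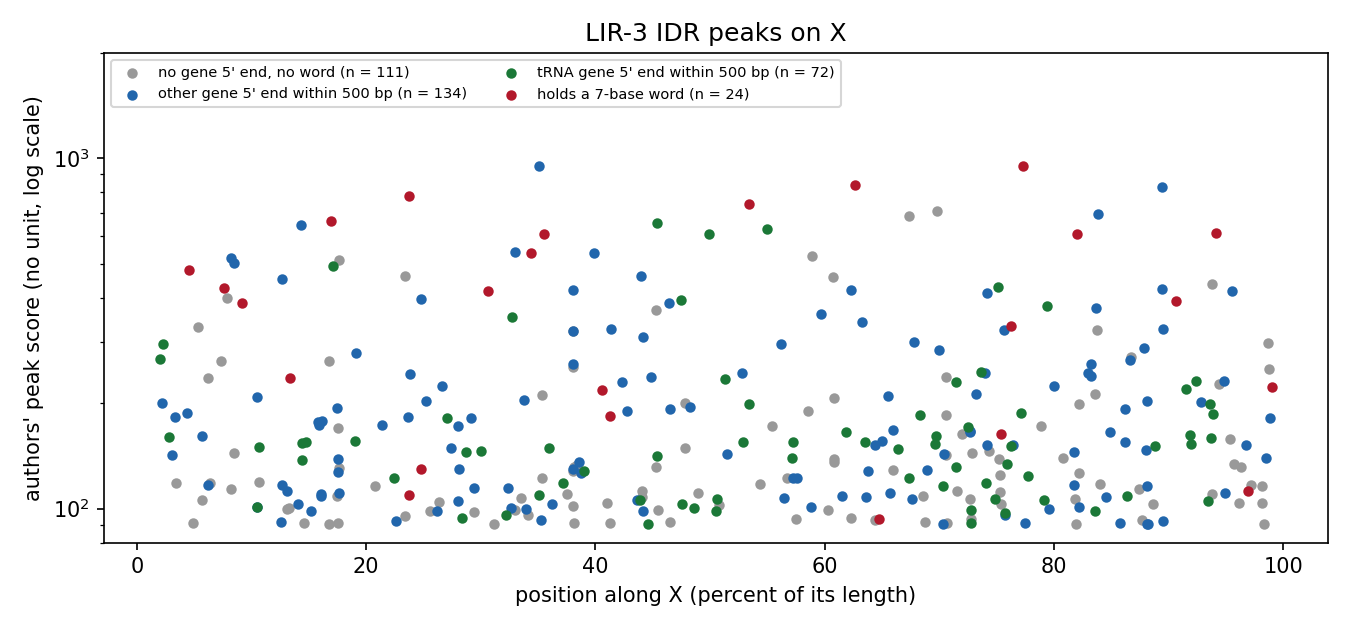
Each point is 1 of the 341 X peaks, with its position along X in percent of the chromosome's length (x axis) and the authors' score without unit (y axis, log scale); colour gives the class, with tRNA genes first where a peak fits more than 1 class, so that 24 of the 26 word peaks are drawn as such. Word peaks are spread from end to end and make up several of the highest points, with the 2 highest points at 954 and 952.

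Further words stood beside them in the 21 X word peaks without a 5' end. AAGGGG was in 10 of the 21 windows (47.6%) and in 3.92% of windows tiling X. GGATAA was in 10 of 21, against 7.04% of tiling windows, and TGCCCA in 8 of 21 (38.1%) against 5.01%. TATCCAC, reverse complement GTGGATA, was seen in several of the windows shown and then counted. It was in 8 of the 21 (38.1%, 18.1 to 61.6%), in 7 of the other 320 X windows (2.19%), in 1.03% of autosomal summit windows and in 1.5% of windows tiling X. The 21 windows were chosen by the first words, and these shares describe them only.

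Among all 6-base words held by at least 10% of X summit windows, the one with the highest ratio to X flanks was CCTGCG, read CGCAGG on the other strand, which is contained in the first 7-base word. It was in 40 X windows (11.7%), against 0.896% of X flanks, a ratio of 13.1, and in 5.99% of autosomal windows, against 2.05% of flanks, a ratio of 2.92. The next were CGAGAG with 25.2% of X and 21.3% of autosomal windows, ACGCAG with 19.6% and 22.1%, AGCGCG with 10.3% and 12.9%, and ACGCGC with 13.8% and 14.4%. Of these 5 words the first had the widest gap between X and the autosomes, and the last 3 were less frequent on X. A GAGAGA word (TCTCTC), common in regulatory DNA of animals, was in 45.7% of X windows (40.4 to 51.2%) and 39.5% of autosomal windows (37.0 to 42.0%), against 7.91% and 10.9% of flanks and 9.5% and 10.1% of tiling windows. The order depended on the class of summit. With a gene 5' end within 500 bp the shares were 47.8% on X and 33.8% on the autosomes, and without one 42.4% and 52.0%.

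The X windows were richer in GC than the autosomal ones, by a small margin relative to the spread between windows. Mean GC was 44.4% ± 6.5 (SD over 341 windows) on X and 41.6% ± 6.79 (SD over 1553 windows) on the autosomes, where single chromosomes ran from 41.0% to 41.9%. Flanking windows had 34.9% and 36.3%, and the whole chromosomes 35.2% and 35.5%. By class, the gap lay at summits near 5' ends of genes that are not tRNA genes, with 45.8% on X and 41.3% on the autosomes. Summits near tRNA genes had 45.6% and 46.8%, and those with no 5' end 42.2% and 41.6%. A run of at least 12 equal bases or 6 dinucleotide repeats was in 8.21% of X and 6.57% of autosomal windows.

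Transfer RNA genes were the gene class that X peaks lay at most often in relation to the autosomes. A tRNA gene 5' end was within 500 bp of 72 of 341 X summits (21.1%, 16.9 to 25.8%) and of 53 of 1553 autosomal summits (3.41%, 2.57 to 4.44%), and single autosomes ran from 2.48% to 3.94%. In replicate 1's list the shares were 18.4% and 2.99%, and in replicate 2's list 19.6% and 3.9%. X carries 276 of the 612 nuclear tRNA genes (45.1%) and had 57.6% of the tRNA summits. Counted by gene, 82 of the 276 X tRNA genes had a summit within 500 bp (29.7%, 24.4 to 35.5%), against 58 of 336 on the autosomes (17.3%, 13.4 to 21.7%) and 22.9% of all nuclear tRNA genes. The intervals of X and of the autosomes together do not overlap, which is no test, since neighbouring tRNA genes can share a summit. That of X overlaps the intervals of chromosome II, where 14 of 57 had one (24.6%, 14.1 to 37.8%), of chromosome III, with 14 of 64 (21.9%, 12.5 to 34.0%), and of chromosome IV, with 12 of 71 (16.9%, 9.05 to 27.7%). Many tRNA genes have near-identical copies, and how the authors placed reads that fit several copies is not given in the sources used here, so which copy was bound is uncertain.

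The tRNA summits stood at the gene itself. Relative to the 5' end the median summit was at -6 bp on X and at -16 bp on the autosomes, negative being upstream, and 66 of the 72 X summits lay within 100 bp (91.7%). In 12 cases a single X summit served more than 1 tRNA gene, and 27 of the 72 lay in introns of protein-coding genes. A pair of strong X tRNA summits, the second and the fourth in score, is shown because the genes' own letters, in capitals, stand on both sides of the summit. The windows are the plus strand of WBcel235 from RefSeq.
chrX:9743588-9743788: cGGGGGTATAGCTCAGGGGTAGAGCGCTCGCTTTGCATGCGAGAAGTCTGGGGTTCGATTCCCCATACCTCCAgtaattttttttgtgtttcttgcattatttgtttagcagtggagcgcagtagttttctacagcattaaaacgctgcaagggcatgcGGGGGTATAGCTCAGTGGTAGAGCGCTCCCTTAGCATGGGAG
chrX:3036011-3036211: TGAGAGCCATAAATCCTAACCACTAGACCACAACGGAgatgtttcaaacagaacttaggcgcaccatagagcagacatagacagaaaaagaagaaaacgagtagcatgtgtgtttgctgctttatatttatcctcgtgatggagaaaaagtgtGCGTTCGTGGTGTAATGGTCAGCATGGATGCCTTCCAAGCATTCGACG
The first holds all of F15G9.t1 and the start of F15G9.t2, a pair of tRNA-Ala genes in an intron of him-4, a gene of extracellular matrix adhesion. Its summit scored 629, with 243 in replicate 1 and 379 in replicate 2, and lay 59 bp upstream of F15G9.t2. The ncRNA gene F15G9.8 had the 5' end nearest to it. The second lies between M02F4.t2 (tRNA-Glu, minus strand) and M02F4.t1 (tRNA-Gly, plus strand), 64 and 53 bp upstream of them, and scored 493, with 254 and 271 in the replicates.

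Other strong tRNA summits scored 656 at C18A11.t2 (tRNA-Arg), with the summit 325 bp downstream of the 5' end and beyond the gene, 607 at C28G1.t1 (tRNA-Glu) and 428 at R04D3.t2 (tRNA-Val). The first of these is the word peak at 8036432, so its distance and its letters set it apart from the others. The summit at C28G1.t1 lay also 15 bp inside C28G1.2, a serpin gene, and scored 226 in replicate 1 and 397 in replicate 2. The one at R04D3.t2 scored 217 and 220. The median score of the 72 X tRNA summits was 151, against 167 for the 137 X summits near other 5' ends and 130 for the 132 with none. On the autosomes the same medians were 126, 184 and 135, so the tRNA class ranked last there and second on X.

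By amino acid, the tRNA genes with a summit on X were spread over every isotype annotated on X. Leucine had 7 of 17, glutamate 9 of 23, glutamine 6 of 15 and proline 7 of 20, against 5 of 22, 3 of 18, 1 of 12 and 2 of 22 on the autosomes. Asparagine had 4 of 6 on X and 0 of 14 on the autosomes. Threonine had the reverse order, 2 of 14 on X and 6 of 20 on the autosomes. These isotypes were chosen after their counts were seen, and the counts are small. Along X the tRNA genes are uneven, with 51 of 276 in the first of 3 equal segments, 107 in the middle and 118 in the last, and the tRNA summits numbered 17, 23 and 32.

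**Figure D3:**
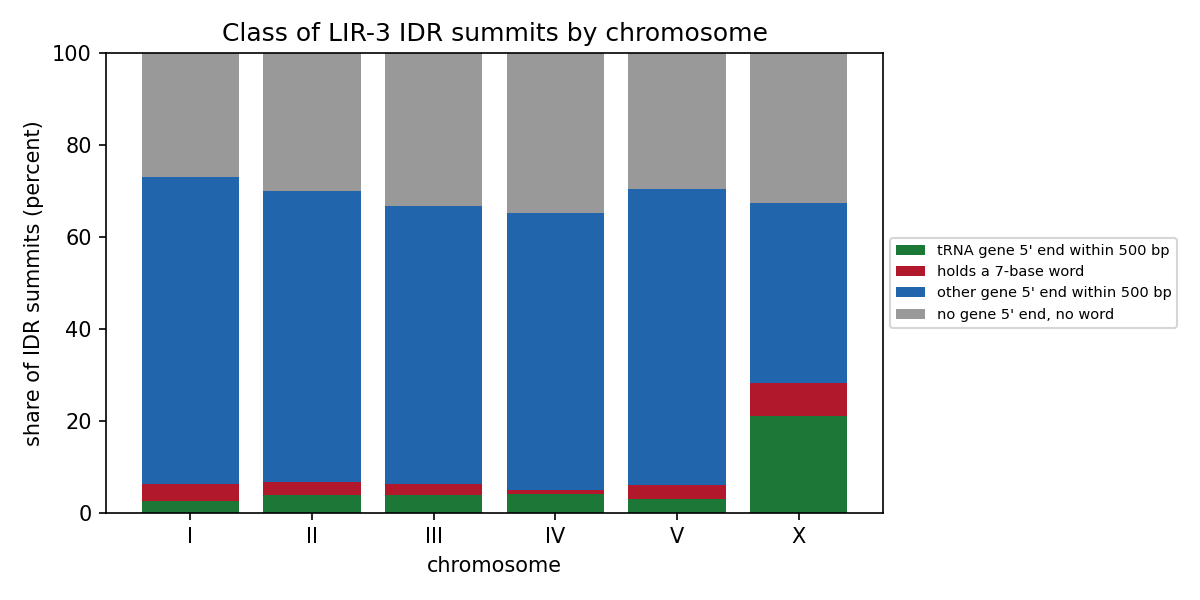
Share of IDR summits in percent (y axis) by class for each chromosome (x axis), stacked to 100%; a peak near a tRNA gene is counted there first, then as holding a 7-base word, then by any other gene 5' end within 500 bp (piRNA genes left out). On X the tRNA class takes 21.1% and the word class 7.04%, against 3.41% and 2.64% over the autosomes, and the class of other 5' ends takes 39.3% against 63.0%.

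Protein-coding genes took a smaller share of the X peaks. Their 5' ends lay within 500 bp of 105 X summits (30.8%, 25.9 to 36.0%) and of 847 autosomal summits (54.5%, 52.0 to 57.0%), with 48.7% to 57.5% on single autosomes. Replicate 1's list gave 32.5% and 55.5%, and replicate 2's list 31.9% and 53.9%. With all tRNA summits left out, 96 of 269 X summits (35.7%) and 833 of 1500 autosomal summits (55.5%) remained near a protein-coding 5' end, so the gap was narrower without them but not closed. Counted by gene, 114 of 2731 X protein-coding genes had a summit (4.17%, 3.46 to 4.99%), against 1102 of 17242 on the autosomes (6.39%, 6.03 to 6.77%) and 6.09% in the nuclear genome. Over all gene types except piRNA the shares were 5.8% on X, 6.25% on the autosomes and 6.17% together.

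Shares of other RNA genes with a summit were higher on X for some classes and lower for others, with no test of the differences. For snoRNA genes, which guide modification of other RNAs, 4 of 33 on X had a summit (12.1%, 3.4 to 28.2%) and 76 of 313 on the autosomes (24.3%, 19.6 to 29.4%), with intervals that overlap. Genes annotated as ncRNA had 135 of 2520 on X (5.36%, 4.51 to 6.31%) and 315 of 5244 on the autosomes (6.01%, 5.38 to 6.68%). Of X summits 29.6% lay near an ncRNA gene, against 15.7% of autosomal summits. For lincRNA genes X had 3 of 38 (7.89%, 1.66 to 21.4%) and the autosomes 8 of 156 (5.13%, 2.24 to 9.85%). For piRNA genes, which give rise to small RNAs of the germ line, X had 2 of 162 (1.23%, 0.15 to 4.39%) and the autosomes 82 of 15201 (0.539%, 0.429 to 0.669%). MicroRNA genes had 2 of 74 on X and 12 of 187 on the autosomes, and none of 178 X pseudogenes had one, which allows up to 2.05%. Overlapping genes share summits, so these classes are not exclusive.

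X summits with no gene 5' end within 500 bp numbered 132 (38.7%), against 485 on the autosomes (31.2%), and lay farther out, at a median of 1734 bp from the nearest 5' end against 1388 bp. Ends of piRNA genes were not counted here. Over all summits, 3 on X (0.88%) and 40 on the autosomes (2.58%) lay within 500 bp of one. Of the 132, 88 lay outside protein-coding genes (66.7%) and 39 in introns (29.5%). Over all 341, 78 were in introns (22.9%) and 5 in coding exons (1.47%), against 19.8% and 2.0% on the autosomes.

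Of the 25 strongest X peaks 13 had a gene 5' end within 500 bp. The strongest of all, at 6207818, scored 954, with 460 in replicate 1 and 524 in replicate 2, and ranked 53 among nuclear peaks. It lay 17 bp upstream of the ncRNA gene C14F11.14 and 131 bp upstream of T13C5.6, a gene of the phosphatidic acid phosphatase family. The peak at serp-1.1, for a stress-associated endoplasmic reticulum protein, scored 829, with 330 and 509, and lay 310 bp upstream. The peaks at pdi-6, for a protein disulfide isomerase that helps fold secreted proteins, and at hsp-3, for an Hsp70 chaperone of the endoplasmic reticulum, each scored 536. In the replicates the former had 267 and 290 and the latter 243 and 319, and both lay within 50 bp of the 5' end. The peak at C27C12.4, for an UNC93-like protein, scored 693 and had the higher score in replicate 1, with 425 and 292.

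At F52H2.13, W06B11.7 and F09E10.14, ncRNA genes of unnamed function, the peaks scored 647, 541 and 503, and the second of these also lay 253 bp upstream of puf-9, which encodes an RNA-binding protein of the Pumilio family. The peak at zfp-3, which encodes a protein with CCCH zinc fingers, scored 520, with 237 and 313 in the replicates. Of the windows at these genes, 3 are shown for comparison with the word peaks, in the same form, with the first GAGAGA or TCTCTC in capitals where there is one. None holds GCGCAGG or GCGAAGG. They are the windows at C14F11.14, serp-1.1 and zfp-3, in this order.
chrX:6207718-6207918: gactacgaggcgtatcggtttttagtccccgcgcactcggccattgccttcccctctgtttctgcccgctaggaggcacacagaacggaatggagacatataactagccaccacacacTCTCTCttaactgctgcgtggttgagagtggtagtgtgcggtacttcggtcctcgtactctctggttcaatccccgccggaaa
chrX:15841162-15841362: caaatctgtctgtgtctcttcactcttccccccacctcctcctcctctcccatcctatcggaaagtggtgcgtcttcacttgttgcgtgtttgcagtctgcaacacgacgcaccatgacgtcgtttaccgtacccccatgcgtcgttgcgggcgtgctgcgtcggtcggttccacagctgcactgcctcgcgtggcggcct
chrX:1446884-1447084: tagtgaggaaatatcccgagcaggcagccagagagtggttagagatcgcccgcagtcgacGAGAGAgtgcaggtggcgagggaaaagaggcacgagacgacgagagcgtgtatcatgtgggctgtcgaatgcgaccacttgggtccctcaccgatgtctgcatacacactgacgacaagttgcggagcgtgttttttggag

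Of the 25 strongest X peaks 12 had no 5' end of any gene within 500 bp, against 2 of the 25 strongest autosomal peaks, where 21 lay at protein-coding genes and 8 did on X. The peak at 13700855 scored 952, with 362 and 597 in the replicates, and held GCGAAGG alone, as did the peak at 9465871, which scored 742, with 307 and 426. The peaks at 12363184 and 11937550 scored 706 and 686 and held neither word. These positions were fixed by strength and are named without a gene because none, piRNA genes aside, has its 5' end within the window.

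Lists of genes by function were small on X, and X-linked members are given as counts out of all members on X. Of genes with general cellular roles, 1 of 2 ribosomal protein genes had a summit, rpl-11.2 with a score of 451, and so did eef-1A.2, the only translation factor of the list on X, with 310. Of 5 chaperone genes hsp-3 and dnj-14 had one, the latter with 224. Of 3 genes for the proton-pumping vacuolar ATPase, vha-12 and vha-15 had one, with 182 and 116. The lists of proteasome, respiratory chain and spliceosome genes have no member on X. With counts of this size the intervals are wide, from 5.27% to 85.3% for the chaperones, beside a background of 4.17% of X protein-coding genes. On the autosomes 42 of 79 ribosomal protein genes (53.2%) and 12 of 32 translation factor genes (37.5%) had a summit. Chaperone genes had 16 of 60 (26.7%) there and vacuolar ATPase genes 3 of 17 (17.6%), beside 6.39% of autosomal protein-coding genes. Shares above the background were thus not particular to X.

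Members of the remaining lists with a summit were few, from 0 to 2 a list, beside the same background of 4.17%. No collagen gene of 27 and no neuropeptide or insulin gene of 34 had one, which allows up to 12.8% and 10.3%, and none of 4 histone genes did. Of 23 nuclear hormone receptor genes only nhr-1 had one, with a score of 182, and of 18 homeobox genes only ceh-39, with 101. Of 37 genes for neuronal channels and receptors only glr-6, a glutamate receptor gene, had one, with 136. The unc list had 2 of 16 (12.5%, 1.55 to 38.3%), the potassium channel gene unc-58 with 140 and unc-115, an actin-binding protein of axon guidance, with 123. One of 28 chemoreceptor genes, srd-44, had a summit 375 bp upstream, with a score of 153. Autosomal shares were 3.88% for collagen, 1.89% for neuropeptide or insulin and 8.82% for histone genes, beside 6.39% of autosomal protein-coding genes. Nuclear hormone receptor genes had 3.25% there, homeobox genes 2.22% and neuronal channel and receptor genes 2.17%. The unc list had 11.5% and chemoreceptor genes 0.262%.

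Of 6 X-linked genes that count X chromosomes or start dosage compensation, 2 had a summit (33.3%, 4.33 to 77.7%), beside 4.17% of all protein-coding genes on X. The gene sdc-2, which brings the dosage compensation complex to hermaphrodite X chromosomes, had one 429 bp upstream with a score of 156, with 58.9 in replicate 1 and 73.3 in replicate 2. The gene ceh-39, an X signal element, had one 223 bp upstream with 101, with 70.1 and 49.2. In the ranking of 1894 nuclear peaks the one at sdc-2 was near the middle, at 975, and the one at ceh-39 in the lower part, at 1616. At xol-1, the switch gene that the X signal represses, the nearest summit was 4682 bp away. It was 7941 bp away at sex-1, 36106 bp at fox-1 and 4328 bp at sdc-1. Of 16 autosomal genes of the list, beside 6.39% of all autosomal protein-coding genes, only dpy-30, for a subunit shared with histone methyltransferase complexes, had one, with a score of 118. The others were sea-1, sea-2, sdc-3, dpy-21, dpy-26, dpy-27, dpy-28, mix-1, capg-1, her-1, tra-1, tra-2, fem-1, fem-2 and fem-3.

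The X peaks were not crowded in the middle of the chromosome, as autosomal peaks were, and were most frequent in its last segment. Of X summits 99 (29.0%) lay in the first of 3 equal segments, 109 (32.0%) in the middle and 133 (39%) in the last. On the autosomes the middle segment held 53.6%, and 49.1% to 59.5% on single chromosomes. The X protein-coding genes had 31.9%, 35.7% and 32.4% in the segments, with the highest share in the middle. In the replicates' own lists the middle of X held 29.1% and 31.7%. The 26 word peaks had 9, 8 and 9 in the segments and the 132 peaks without a 5' end 38, 43 and 51. Counts per full Mb ran from 11 to 29, with a median of 19.

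**Figure D4:**
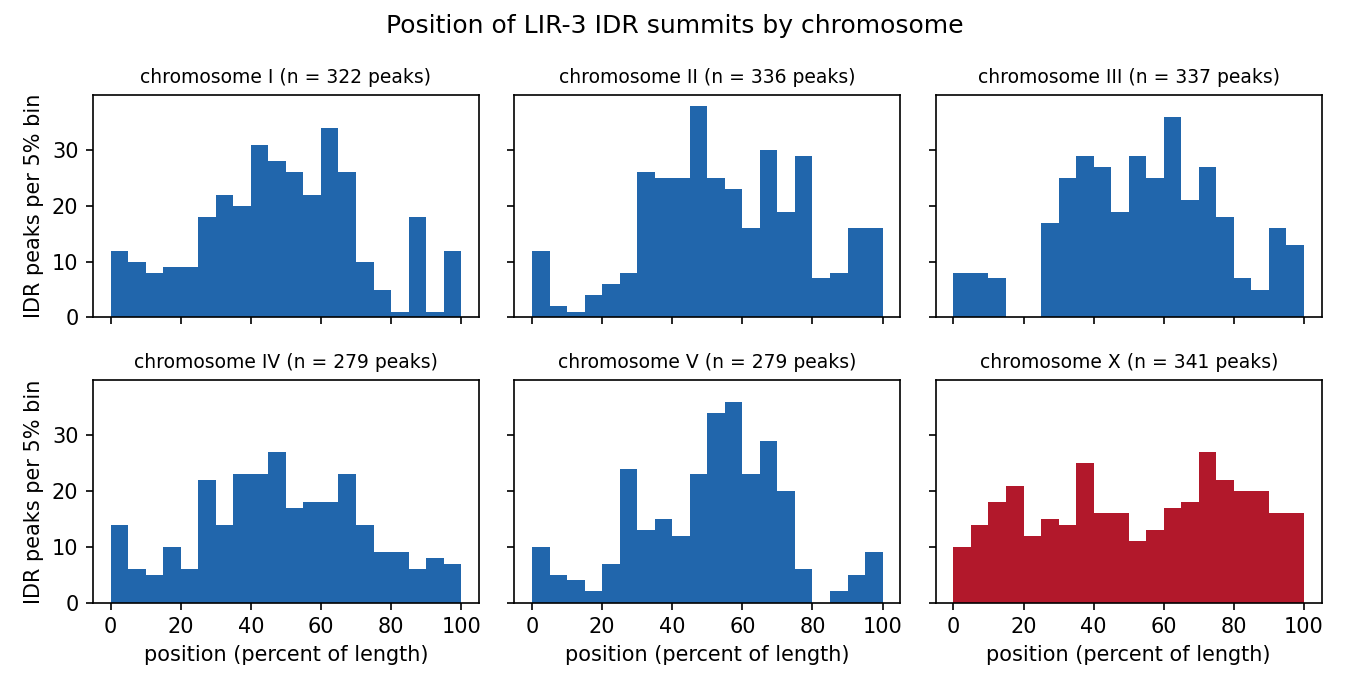
Number of IDR summits (y axis) in bins of 5% of the chromosome's length (x axis, percent of length), one panel per chromosome with its number of peaks. On the autosomes the bars are tall in the middle and low toward the arms, and on X (red) there is no such rise in the middle, with 29.0%, 32.0% and 39% of the peaks in 3 successive equal segments.

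The X share of peaks was close to its share of length. X had 18.0% of nuclear peaks (16.3 to 19.8%) and 17.7% of nuclear length, which is 19.2 peaks per Mb against 18.8 on the autosomes, and single autosomes ran from 13.3 on V to 24.4 on III. The replicates' own lists gave X shares of 16.9% and 18.8%. The ratio of peaks per Mb on X to the autosomes was 1.02 in the IDR set, 0.947 in replicate 1's list and 1.08 in replicate 2's list, so its direction differed between the lists, and it was 0.87 for the stronger 50% of IDR peaks and 0.876 without summits near small RNA genes. Of the regions in the pooled list X had 21%, and 5.43% of its regions were in the IDR set, against 6.55% on the autosomes and 4.33% to 9.12% on single ones.

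Neighbouring X summits were farther apart at the median than on any autosome. The median spacing was 33131 bp, with 33689 and 31299 bp in the replicates' lists, against 20450 bp over the autosomes and 16892 to 28067 bp on single ones. The widest gap on X was narrower than on every autosome, 345 kb against 553294 to 1531049 bp. It ran from 1888666, where no gene end was near, to 2234135, at T14F9.2, and holds the 5' ends of 57 protein-coding genes. Of 340 spacings 15 were under 1 kb (4.41%), against 5.23% on the autosomes.

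The densest 100 kb held 11 summits, and 10 of them lay in the first 14.4 kb, from 6735811 to 6750243. Genes near these summits were the ncRNA genes R03E9.6, R03E9.9 and R03E9.7. One summit was in an intron of mdl-1, which encodes a Mad-like transcription factor, and a pair was in an intron of abts-4, a bicarbonate transporter gene. Scores ran from 91.1 in abts-4, at 6750243, to 422 near R03E9.7, at 6744040. Both of these summits were absent from replicate 1's list, as was the one at 6739253. In replicate 2's list they scored 88.5, 248 and 79.0. None of the 11 held either 7-base word or lay near a tRNA gene.

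The X peaks lacked the very high scores of the autosomes. The median score was 149 on X and 162 on the autosomes, from 152 to 176 on single ones, and the upper quartiles were 236 and 273. The highest X score, 954, was below the maximum of every autosome, which ran from 1540 to 2614. X had 0 of the 50 strongest nuclear peaks, 7 of the strongest 100, 24 of the strongest 200 (12%) and 180 of the 894 ranked after 1000 (20.1%). In replicate 1's list the IDR peaks on X had a median of 69.3, against 80.4, and 77.8 to 84.0 on single autosomes. In replicate 2's list it was 90.3 against 93.1, and 85.7 to 95.2 on single autosomes. X was thus below every autosome in replicate 1's list but above chromosomes IV (86.6) and V (85.7) in replicate 2's list. X summits near a gene 5' end had a median of 155, against 177 on the autosomes, and 5.74% of them were among the strongest 200, against 14%. Without a 5' end the medians were 130 and 135, and 9.09% of the X peaks were among the strongest 200, against 5.36%.

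Both replicates held most X peaks, and the IDR set was itself made from both. The summit lay in a region of each list for 325 of 341 (95.3%), 13 were missing in replicate 1's list and 3 in replicate 2's list. On the autosomes 1482 of 1553 were in both (95.4%). Over these 325 X peaks the scores of the lists had a Spearman correlation of 0.71, against 0.79 over the 1482 autosomal peaks. This is a description across peaks that share their libraries. All 26 word peaks had a value in both lists. The tRNA summit at F46G11.t1 and F46G11.t2, which scored 352, was absent from replicate 1's list and scored 226 in replicate 2's list.

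**Figure D5:**
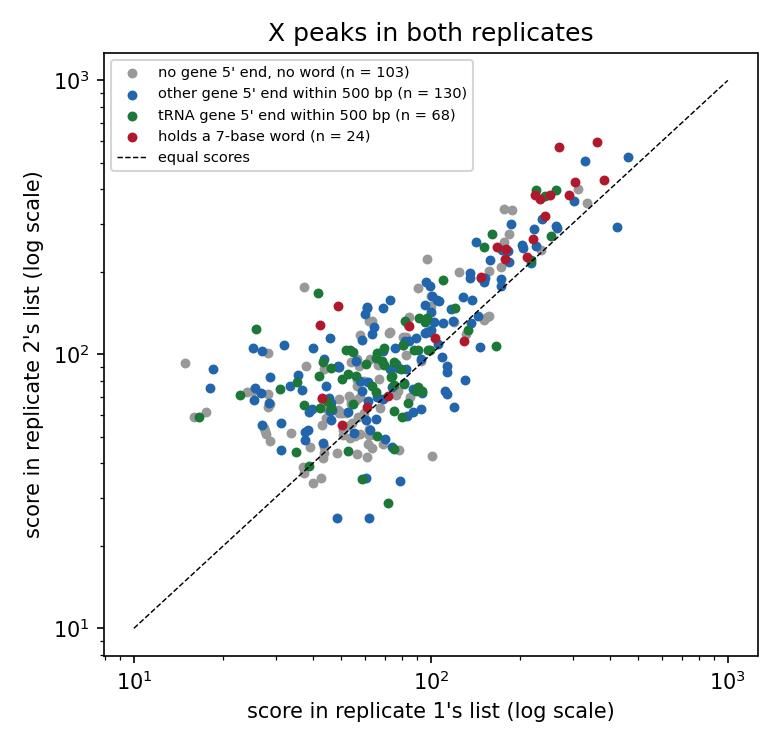
Score of each X peak in replicate 1's list (x axis, log scale) and in replicate 2's list (y axis, log scale), both without unit, for the 325 X peaks found in both, coloured by class; the dashed line marks equal scores. Word peaks are among the highest points in both lists and also lie at the low end, as at lin-14 with 42.9 and 69.2, and the Spearman correlation over all points is 0.71.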

How the data were processed

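The authors deposited peak lists for each replicate, for both pooled and for the IDR set, which, per the deposited file descriptions, were made with a further input file. Peak caller, aligner and IDR cutoff: not given in the sources used here. The authors' score has no stated unit, and the deposited −log10 q-value is at its highest, 2.01, for 250 of the 341 X peaks, so peaks were ranked by score. The deposited summit offset gave each position. The pooled list repeats all 1910 IDR peaks with equal positions and scores. A peak was assigned to every gene whose annotated 5' end was at most 500 bp from the summit (Ensembl release 115, WBcel235; tRNA products and sequence from RefSeq). The piRNA genes were counted as a class of their own and left out of counts over any gene. Words were counted within 100 bp of summits. Read depth is unknown, and no column was left unmatched. The number of unmatched columns was 0.

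The peaks were taken by chromosome, and the gene lists, words and members were chosen with earlier results of these data known. The 7-base words, the 12-base run and TATCCAC were chosen after the 6-base counts were seen. Genes named are those nearest to the 25 strongest X peaks, up to 5 tRNA genes and up to 4 members per list with the strongest peaks, all sex determination genes, and genes at the widest gap and in the densest 100 kb; lin-14, pks-1, mom-1 and other genes at word peaks, and further tRNA genes, were added after their values were seen. Assignment of summits to genes was run on simulated summits, all placed within 500 bp of a protein-coding 5' end, and all were recovered. No summits were placed farther away, so false assignment was not tested. Python 3.11.15, numpy 2.4.6, scipy 1.17.1, pandas 2.3.3 and matplotlib 3.10.9 were used. Alternatives were each replicate's list alone, the stronger 50% of peaks, no summits near small RNA genes, other windows, the ce10 lists, merged summits and the middle 50% of the chromosome.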

Additional observations from a re-analysis of the deposited data

How the results depend on the processing

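No paired analysis was possible because there is 1 group. With each replicate's list alone, the X share of peaks ranged from 16.9% to 18.8%, the ratio of peaks per Mb from 0.947 to 1.08 around a value of 1.02, and the ratio of median scores from 0.837 to 0.947. The median spacing ranged from 31299 to 33689 bp, and the share in the middle of X from 29.1% to 31.7%. The tRNA share ranged from 18.4% to 19.6% and its difference from the autosomes from 15.5 to 15.7 points. The protein-coding share ranged from 31.9% to 32.5%, its difference from -23.0 to -22.0 points, the GC difference from 2.64 to 3.2 points, the GCGCAGG share from 5.88% to 6.25% and its difference from 4.52 to 5.23 points.

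The density of X was thus above the autosomes in one replicate's list and below in the other. With the stronger 50% of the IDR peaks the X share was 15.7%, the density ratio 0.87, the median spacing 80052 bp, the tRNA share 17.4% and its difference 15.6 points. The protein-coding share was then 38.9%, the GC difference 3.81 points, and the GCGCAGG share 10.7% with a difference of 9.23 points. Without summits near small RNA genes the X share was 15.8%, the density ratio 0.876, the spacing 39706 bp, the protein-coding share 35.8% with a difference of -21.5 points, and the GCGCAGG share 7.17% with a difference of 6.18 points; the tRNA results were not run there, since they are about these genes. With windows of 250 and 1000 bp the protein-coding share was 20.2% and 44.3%, its difference -16.5 and -21.6 points, and the tRNA difference 17.5 points at 250 bp. With sequence 50 and 250 bp to each side the GC difference was 1.84 and 1.7 points and the GCGCAGG share 4.99% and 7.04%. The middle 50% of X held 50.4% of its summits. The cause of these shifts was not tested. The stronger 50% holds fewer peaks, and no equal number of other peaks was taken beside it. The GCGCAGG alternatives were chosen after seeing the data. The ce10 list, run for counts, scores and positions with ce11 chromosome lengths, and merged summits moved no value beyond the spread between the replicates' lists (SD, n = 2).

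Limits: score scale, read depth and the handling of multiply matching reads are unknown, a control experiment named in the labels was not analysed here, n is 2, and intervals cover counting error only. The gene annotation sets which summits have no 5' end near them. The symbol sex-2 has no entry in the annotation used and was left out.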
